A study of Mus musculus with 6 samples.

Results

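Nefl, Nefm, Nefh, Map2, Mapt, Map1b, Ank3, Sptbn4 and Rbfox3 are 9 genes of the neuronal cytoskeleton, the axon initial segment and neuronal identity. They were taken by symbol, with every array probe that carries their name: 9 genes of the 37008 gene names on the array, with 35 of its 56605 probes. The cultures were cells of the cerebral cortex of C57/B6 mouse embryos at embryonic day 16, a preparation labelled as a neuron culture. In the irradiated group, 3 cultures received terahertz radiation at 3.1 THz, a band between microwaves and infrared light, in daily sessions of 3 h that began on day 5 in vitro and ended on day 9. In the control group, 3 cultures were not irradiated. RNA of both groups was collected at day 12 in vitro and hybridised to 1-colour Agilent arrays. The labels do not say whether the cultures came from separate dissections, so a p-value here rests on sample-to-sample spread that may be technical. No cell sorting is mentioned in the labels.

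Neurofilaments are the intermediate filaments of the axon: a light chain forms the core, and medium and heavy chains carry long tails that project from the filament and set axon width. Microtubules are stabilised by a different protein in each compartment, MAP2 in dendrites and tau in axons, while MAP1B is prominent in growing processes. At the axon initial segment, where action potentials start, ankyrin-G holds channels and adhesion molecules on a lattice of actin and beta-IV spectrin. NeuN, the product of Rbfox3, is a splicing regulator and the usual nuclear stain for postmitotic neurons.

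The array measured each gene at separate places, and the estimated differences at these probes varied. No difference between probes of a member gene passed an adjusted p of 0.05. They are 60-base oligonucleotides with the sequence of the transcript, and the file headers place them on the mouse genome build mm9. Exon, intron and UTR annotation of that build was not used here. The first set below shows the 30 bases around AATAAA, the polyadenylation signal found near the 3′ end of many transcripts, in the reference probes of 3 genes, where the reference probe is the measured probe of a gene with the highest mean signal. Capitals mark AATAAA.
Nefm A_55_P2723589: cagtccttgctcAATAAAggtcatactgga
Nefh A_55_P2053181: ttgcttccatgcAATAAAaccaagtgcttc
Sptbn4 A_55_P2075966: gtatgtacctatAATAAAccctttggcttt
They lie within the probes at chr14:68737598-68737657, minus strand, chr11:4838758-4838817, minus strand, and chr7:28141402-28141461, minus strand. AATAAA, searched on the probe's own strand, occurred in 7 of the 35 member probes and in 9.77% of all 56605 probes. It occurred in 4 of the 9 member reference probes and in 12.6% of the reference probes of all genes. A match is a description of the letters and not a mapped transcript end.

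The second set shows whole probes that lie upstream of another probe of the same gene. They are called internal here, although their place in the transcript was not mapped. They were chosen because the signal of each was set against a brighter probe of its own gene, or, for Map1b, because the bright probe is itself the internal one. All of them list a RefSeq transcript, that is a transcript of the curated NCBI collection, and each can be read without a stop triplet in at least 1 of the 3 frames.
Nefm A_51_P145220: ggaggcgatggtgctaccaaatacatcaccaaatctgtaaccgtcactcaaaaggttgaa
Mapt A_66_P115262: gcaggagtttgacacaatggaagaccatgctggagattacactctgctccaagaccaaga
Map1b A_55_P2736919: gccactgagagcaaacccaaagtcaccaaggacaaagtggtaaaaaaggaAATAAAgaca
Ank3 A_55_P2012999: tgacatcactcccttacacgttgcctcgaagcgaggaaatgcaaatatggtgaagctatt
Rbfox3 A_52_P674067: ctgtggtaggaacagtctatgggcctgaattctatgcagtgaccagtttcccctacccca
Their positions were chr14:68738193-68738252, minus strand for Nefm, chr11:104143710-104143768, plus strand for Mapt, chr13:100204235-100204294, minus strand for Map1b, chr10:69312856-69312915, plus strand for Ank3, and chr11:118358364-118358539, minus strand for Rbfox3. The Rbfox3 interval is longer than the probe, as for a probe that joins separate stretches of the genome. In the Map1b probe the capitals fall at a place with an open frame through all 60 bases. Most member probes, among them the Nefm, Nefh and Sptbn4 probes of the first set, also have at least 1 open frame. This trait therefore sets none of the printed probes apart.

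The third set shows the first 30 bases of probes that list only Ensembl or GenBank transcripts, none of RefSeq. They are shown because the 4 pairs of probes with an unadjusted p under 0.05, described further on, each hold 1 of them.
Ank3 A_55_P2721538: cctttgtctgtgagaagtttgctttgaaca
Map1b A_55_P2738372: taaaacccacccatttcagtgaccctctat
Map2 A_65_P07100: acctaacctgaagaaaatgatgctaatatt
Mapt A_55_P2627050: acttgtcattcgaacttccttctctgcagt
The Ank3 probe lay at chr10:69273105-69273164, plus strand, which is 214169 bases upstream of the Ank3 reference probe along the transcribed strand. The Map1b probe lay at chr13:100277017-100277076, minus strand, 72782 bases upstream of its reference probe. The Map2 probe lay at chr1:66454726-66454785, plus strand, 34304 bases upstream, and the Mapt probe at chr11:104156512-104156571, plus strand, 32984 bases upstream. The Map2 probe with the largest difference, A_52_P54666, lay further upstream, 38751 bases from the Map2 reference probe.

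Signals are given as log2 processed signal relative to the 75th percentile of the array, so a value of 0 is the signal at that percentile, and differences are irradiated minus control on this scale. The 75th percentile itself was between 635 and 892 on irradiated arrays and between 320 and 708 on control arrays, and the share of spots well above background was 72.88% to 74.71% against 64.91% to 72.59%. Control 1 stood apart, at -114 on the first principal component (54.5% of the variation), where the other 5 arrays lay between -3.91 and 47.5. All 9 marker genes of neurons that are not members were measured, among them Snap25 and Syt1, with a summed log2 signal of 8.05 to 8.69 on irradiated arrays and 8.61 to 8.77 on control arrays. Markers of other cells were present too: 9 of 9 for astrocytes, 10 of 10 for the oligodendrocyte lineage and 12 of 12 for microglia and macrophages. Every member had at least 2 probes well above background on all 6 arrays, with 34 of the 35 probes kept for tests (a signal called well above background by the scanner software on 3 arrays or more). The probe left out, Nefm A_55_P2720341, was well above background on 1 irradiated array and no control array.

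No probe of the 9 genes differed between irradiated and control cultures at an adjusted p under 0.05, and none of the 40552 tested probes did (0%). With limma and no correction for multiple tests, 2 of the 34 member probes had p under 0.05, a share no higher than the 9.02% of all tested probes. These 2 were 1 Ank3 probe that was higher in irradiated cultures and 1 Sptbn4 probe that was lower. The smallest adjusted p over the member probes was 0.52. In RNA from whole cultures, fewer cells of a type and less RNA per cell cannot be told apart.

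Among the neurofilament chains, Nefl, the light chain that forms the filament core, had log2 signals of 5.76, 6.45 and 6.60 in irradiated cultures 1 to 3 and of 6.52, 6.95 and 6.59 in control cultures 1 to 3. Irradiated 1 was the lowest of the 6 arrays, while irradiated 3 and control 3 nearly coincided, so the groups overlapped. The means were 6.27 ± 0.45 and 6.69 ± 0.23 (SD, n = 3 each), so that irradiated minus control was -0.42, with -1.08 to 0.25 as the 95% interval (limma, adjusted p = 0.588). Without irradiated 1 the difference was -0.16. The other Nefl probe, 1141 bases downstream, differed by -0.06.

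Nefm, the medium chain, had log2 signals of 5.08, 4.97 and 4.98 in irradiated cultures and 5.13, 5.10 and 5.16 in control cultures. It was the steadiest of the 9, with a range of 0.19 over the arrays and a standard deviation lower than that of all but 0.632% of genes. Nefm was also the one member whose reference probe did not overlap between the groups, all 3 irradiated arrays lying below all 3 controls. That was 1 of 9 reference probes, where 15.9% of all reference probes did not overlap in either direction, with all irradiated arrays below in 12.1% and above in 3.86%. The means were 5.01 ± 0.06 and 5.13 ± 0.03 (SD, n = 3 each), and the difference of -0.12 (interval -0.55 to 0.32) had a limma adjusted p of 0.839, since limma draws a probe's own small spread toward that of all probes. After quantile normalisation of the arrays this difference was 0.13. The internal Nefm probe printed above went the other way even before that, at 2.98, 2.90 and 2.37 in irradiated cultures against 1.73, 2.46 and 2.69 in controls. Its difference was 0.46 (interval -0.28 to 1.19, limma adjusted p = 0.592), with control 1 the lowest array.

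Nefh, the heavy chain, which accumulates late as axons mature, had log2 signals of 4.72, 4.20 and 4.63 in irradiated cultures and 5.28, 4.41 and 4.66 in control cultures. The arrays numbered 1 were the highest and those numbered 2 the lowest in each group. Means were 4.52 ± 0.28 and 4.78 ± 0.45 (SD, n = 3 each), with a difference of -0.27 (interval -0.94 to 0.41, limma adjusted p = 0.74). Without control 1 that difference was -0.02, and without irradiated 2 it was -0.11. The other Nefh probe, 160 bases away, gave the same order at 3.76, 3.17 and 3.73 in irradiated cultures and 4.04, 3.33 and 3.68 in controls. The oligodendrocyte lineage list had this order as well, with 10 of 10 markers measured and a summed log2 signal of 7.12, 5.70 and 6.49 in irradiated cultures against 7.30, 5.60 and 6.70 in controls. Among its defining markers, Mobp was below background on some arrays. The part of those cells in the Nefh values was not tested.

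**Figure D1:**
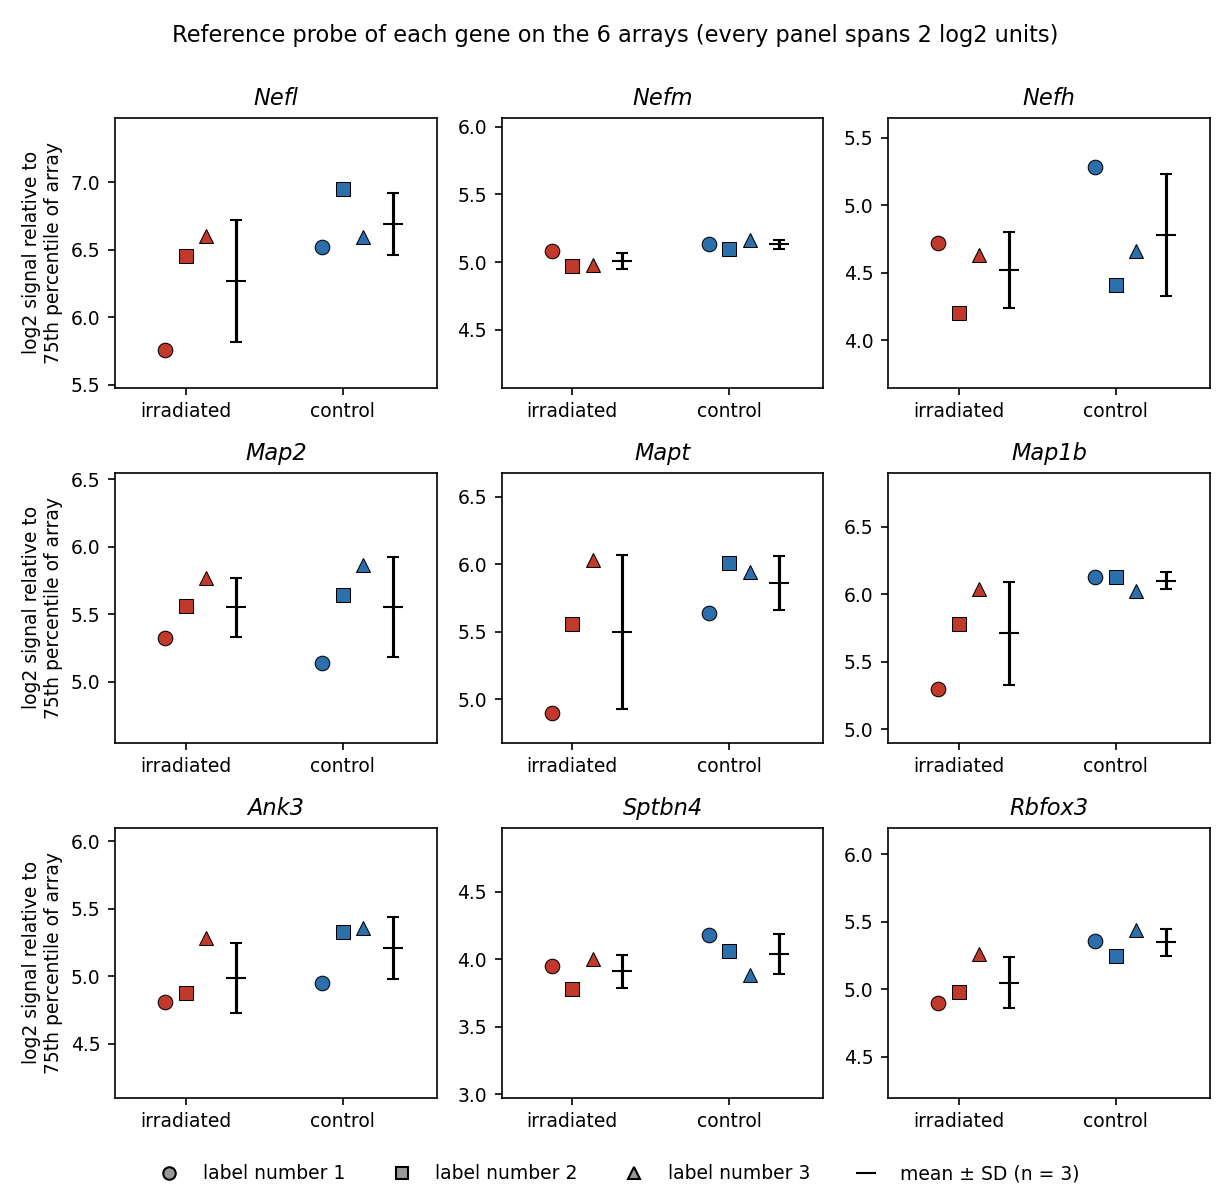
Log2 signal of the reference probe of each of the 9 genes (vertical axis, relative to the 75th percentile of the array) in irradiated (left, red) and control (right, blue) cultures, with a marker shape for each label number and the mean ± SD at the side. Every panel spans the same 2 log2 units. The Nefm points lie within 0.19 of each other, while those of Nefl, Nefh and Mapt spread over more than 1 unit and overlap between the groups.

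Of the microtubule proteins, Map2, the dendritic one, had the smallest difference of the 9 genes at its reference probe. Its log2 signals were 5.32, 5.56 and 5.77 in irradiated cultures and 5.14, 5.64 and 5.86 in control cultures, with means of 5.55 ± 0.22 and 5.55 ± 0.37 (SD, n = 3 each). The difference was 0.00 with an interval of -0.60 to 0.61 (limma, adjusted p = 0.999), so a change of up to about that size in either direction is within the error. Map2 had the most probes, 7, and 6 of them had a mean at least as high in irradiated cultures. All 7 had their lowest value on control 1. The widest gap was at A_52_P54666, with -0.94, -0.59 and -0.61 in irradiated cultures against -3.16, -0.61 and -1.28 in controls. Its difference of 0.98 had an interval of -0.42 to 2.37 (limma, adjusted p = 0.556), and control 2 lay level with the irradiated arrays.

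Mapt, which encodes the axonal protein tau, had log2 signals of 4.90, 5.56 and 6.03 in irradiated cultures and 5.64, 6.01 and 5.94 in control cultures. Irradiated 1 was the lowest and irradiated 3 the highest array, so the irradiated group enclosed the controls. The means were 5.50 ± 0.57 and 5.86 ± 0.20 (SD, n = 3 each), with a difference of -0.37 (interval -1.1 to 0.37, limma adjusted p = 0.668). Single arrays carried much of it, since it was -0.07 without irradiated 1 and -0.64 without irradiated 3. A probe 66 bases upstream followed it closely, differing by -0.40, and so did one 3810 bases downstream, at -0.34. The probes 45786 and 32984 bases upstream differed by 0.40 and 0.49. The first of these, whose sequence is printed above, had signals of 0.07, 1.11 and 0.59 in irradiated cultures and -0.57, 0.41 and 0.74 in controls.

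Map1b, which binds microtubules in growing axons, had log2 signals of 5.30, 5.78 and 6.04 in irradiated cultures and 6.13, 6.13 and 6.02 in control cultures. The controls lay within 0.11 of each other and irradiated 3 lay among them. Means were 5.71 ± 0.38 and 6.10 ± 0.06 (SD, n = 3 each), so the difference was -0.39 (interval -0.96 to 0.18, limma adjusted p = 0.561). The probe without a RefSeq transcript had 1.77, 1.97 and 2.28 in irradiated cultures against 0.40, 1.85 and 1.49 in controls, a difference of 0.76 (interval -0.13 to 1.66, limma adjusted p = 0.52). The remaining Map1b probe, 11729 bases downstream of the reference, differed by 0.04.

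At the axon initial segment, Ank3, which encodes ankyrin-G, had reference signals of 4.81, 4.88 and 5.28 in irradiated cultures and 4.95, 5.33 and 5.36 in control cultures. The means of 4.99 ± 0.26 and 5.21 ± 0.23 (SD, n = 3 each) differed by -0.22 (interval -0.77 to 0.32, limma adjusted p = 0.733), and the groups overlapped. The other 5 Ank3 probes all had a higher mean in irradiated cultures, by 0.04 to 1.05. The probe with the largest difference of all 34, A_55_P2721538, had signals of -3.04, -3.36 and -3.29 in irradiated cultures and -4.78, -3.66 and -4.40 in controls. All 3 irradiated arrays lay above all 3 controls at this probe, the only member probe of which that was so, where 5.77% of all probes were so ordered. Its difference of 1.05 (interval 0.32 to 1.78) had an unadjusted p of 0.0111 and an adjusted p of 0.52 (limma). It was a dim probe, well above background on all 6 arrays but far below the 75th percentile.

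Sptbn4, which encodes beta-IV spectrin, the partner that ankyrin-G holds at the initial segment, had reference signals of 3.95, 3.78 and 4 in irradiated cultures and 4.18, 4.06 and 3.88 in control cultures. Means were 3.91 ± 0.12 and 4.04 ± 0.15 (SD, n = 3 each), with a difference of -0.13 (interval -0.60 to 0.33, limma adjusted p = 0.827). In contrast to Ank3, all 4 Sptbn4 probes had a lower mean in irradiated cultures, by -0.56 to -0.13. At A_55_P2715071 the signals were -5.49, -5.10 and -5.32 in irradiated cultures against -4.76, -4.52 and -4.95 in controls. There the groups did not overlap and the difference was -0.56 (interval -1.08 to -0.04), with an unadjusted p of 0.0371 and an adjusted p of 0.52 (limma). A further Sptbn4 probe, A_66_P128460, had all irradiated arrays below all controls too, and with the Nefm reference probe this made 3 such member probes of 34, where 9.71% of all probes were so ordered.

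Rbfox3, the NeuN gene, had log2 signals of 4.90, 4.98 and 5.26 in irradiated cultures and 5.36, 5.25 and 5.44 in control cultures. Only irradiated 3 reached into the control range. The means were 5.05 ± 0.19 and 5.35 ± 0.10 (SD, n = 3 each), with a difference of -0.30 (interval -0.77 to 0.18, limma adjusted p = 0.591). The spliced-interval Rbfox3 probe differed by -0.16. The third probe, A_66_P102976, for which the file gives a 13-base interval only, had -2.73, -2.33 and -2.76 in irradiated cultures and -4.71, -3.01 and -2.67 in controls. Its mean difference of 0.86 (interval -0.33 to 2.05) rested mostly on control 1.

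**Figure D2:**
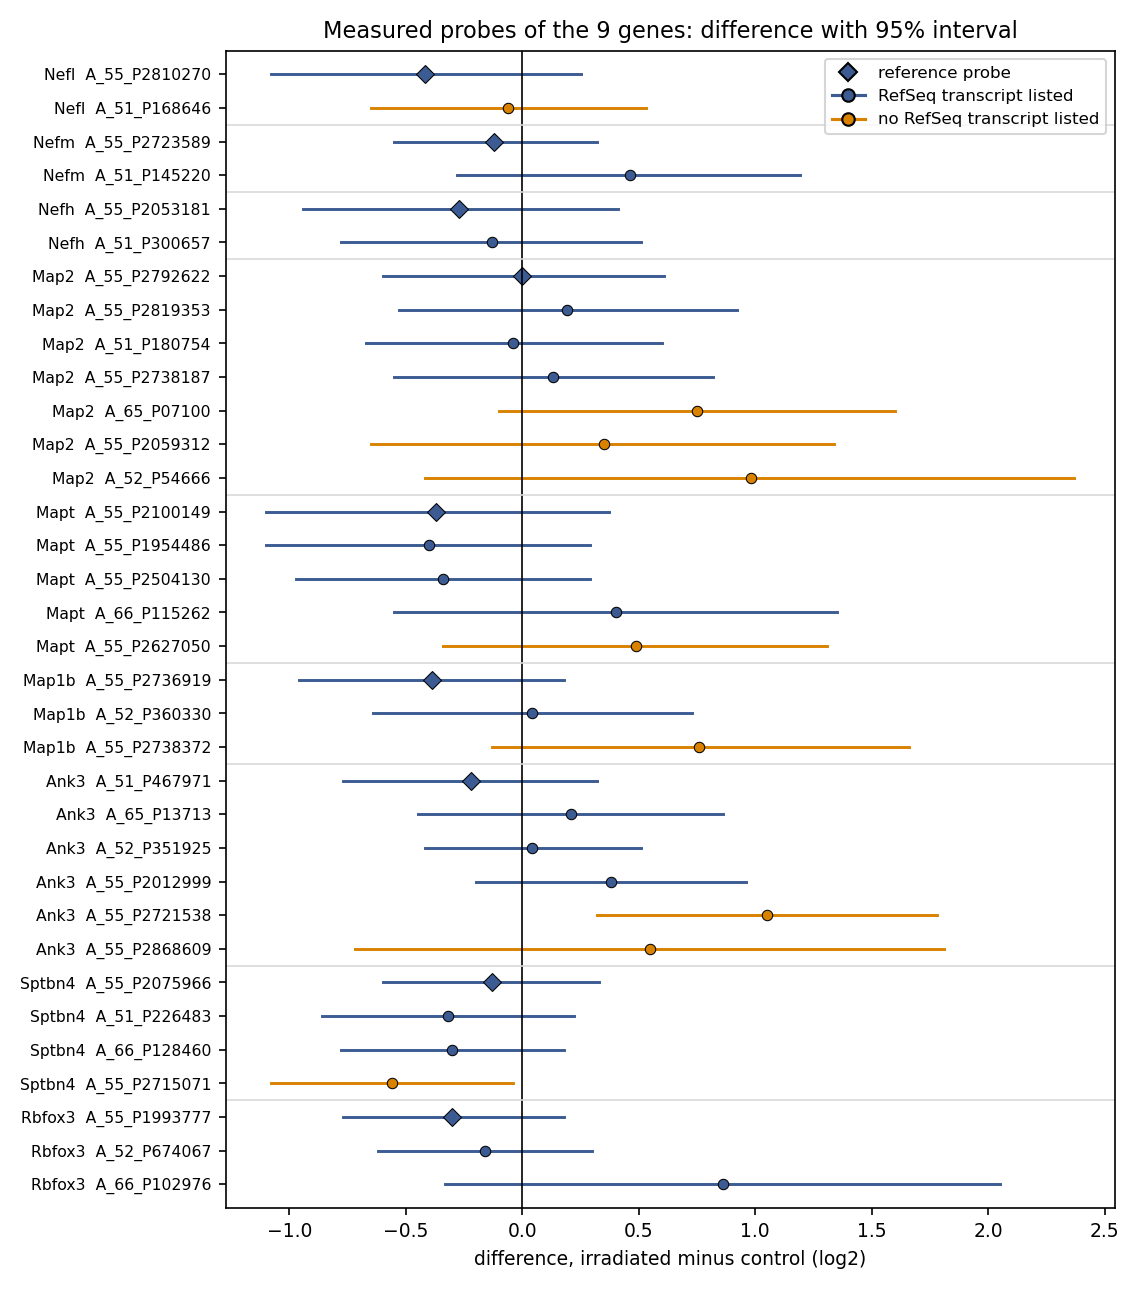
Difference of each of the 34 measured probes (irradiated minus control, log2, with its 95% interval), grouped by gene from Nefl at the top to Rbfox3 at the bottom. Diamonds are reference probes and orange marks probes that list no RefSeq transcript. The interval lies above 0 at Ank3 A_55_P2721538 and below 0 at Sptbn4 A_55_P2715071 and includes 0 at the other 32 probes.

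Over the 9 reference probes, 8 had a lower mean in irradiated cultures, with a median difference of -0.27. Over all genes the median was -0.13 and 65.8% of reference probes were below 0. Counting all 34 measured probes, 17 were below 0 and 17 above, with a median of -0.02 beside -0.05 for all probes. Bright member probes were mostly below 0 and dimmer ones mostly above, Sptbn4 excepted, and the medians over the whole array fell with brightness as well. Among probes with a mean log2 signal over 4, the median difference was -0.28 for all 2920 probes and -0.30 for 11 member probes, 10 of them below 0. Between 2 and 4 it was -0.13 both for all 4660 probes and for 7 member probes. At signals from -2 to 0 the medians were 0.04 for all 7906 probes and 0.49 for 5 member probes, and all of these 5 were above 0. The 6 member probes between 0 and 2 had a median of 0.16 (all 6482 probes, -0.05), and the 5 under -2 ranged from -0.56 to 1.05.

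Quantile normalisation, which gives the arrays a common distribution, removed that slope for bright probes: the median of all probes with a signal over 4 became 0.01. The 9 reference probes then had a median difference of -0.02, with 5 of 9 below 0. Their values were -0.02 for Nefl, 0.13 for Nefm and -0.05 for Nefh, then 0.29 for Map2, -0.08 for Mapt and -0.05 for Map1b, and 0.03 for Ank3, 0.06 for Sptbn4 and -0.04 for Rbfox3. The sign therefore turned for Nefm, Ank3 and Sptbn4 with the scaling. Of all 34 measured probes 11 were then below 0, with a median of 0.15 where that of all probes was 0.00. The dim Ank3 probe A_55_P2721538 kept a difference of 1 and the dim Sptbn4 probe one of -0.52.

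**Figure D3:**
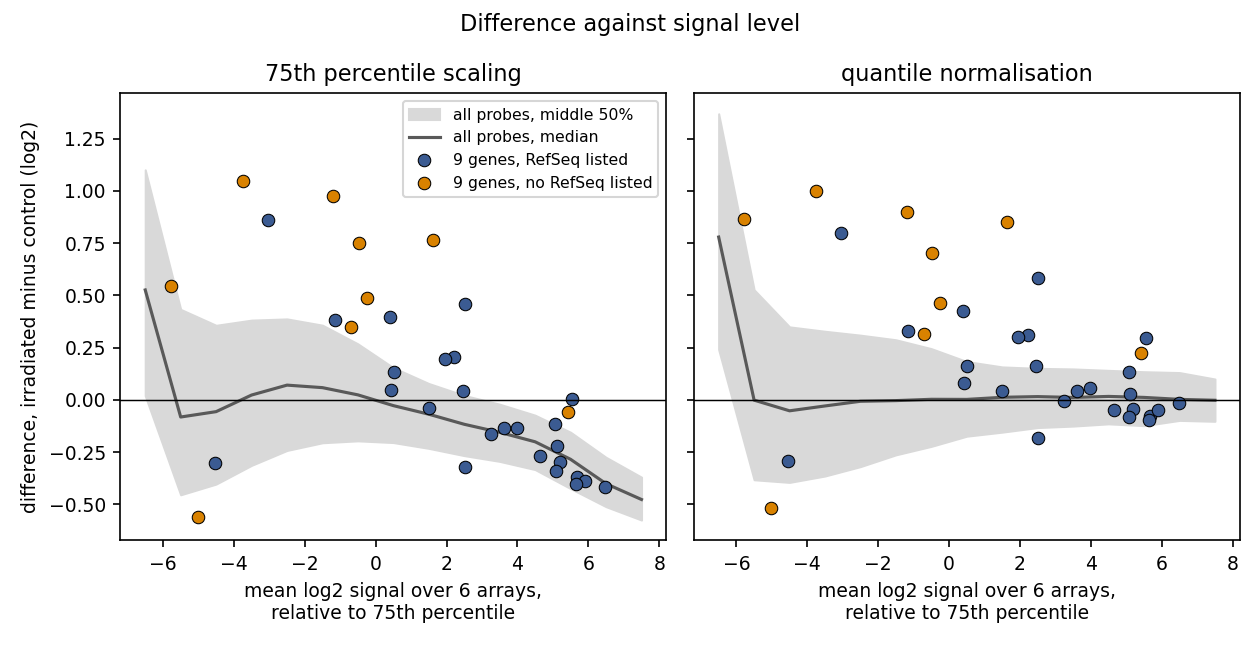
Difference between irradiated and control means (vertical axis, log2) against the mean log2 signal over the 6 arrays (horizontal axis) with 75th percentile scaling (left) and quantile normalisation (right). The grey line and band are the median and the middle 50% of all 40552 probes in steps of 1 log2 unit, and the points are the 34 member probes. On the left the member probes over 4 follow the falling line of all probes, and on the right they lie around 0.

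The difference between 2 probes of a gene on the same array is free of any single scaling factor per array, such as the 75th percentile, so the reference probe was compared with each other probe of its gene. Of 25 such pairs in the 9 genes none passed an adjusted p of 0.05, as did none of 14432 pairs over the array (0%). Unadjusted, 4 of 25 had p under 0.05, where 10.6% of all pairs had. The pair difference was lower in irradiated cultures for 20 of 25, with a median of -0.36. Over all pairs 69.2% were lower, with a median of -0.21. Methods that act by signal level moved these values. With quantile normalisation, 18 of the 25 member pairs were below 0, as were 61.3% of all pairs, whose median was -0.12. With normexp background correction, 18 of the 25 member pairs were below 0, while the median of all pairs was 0.07 and 41.2% of them were below 0.

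For Ank3, the reference probe exceeded A_55_P2721538 by 7.85, 8.24 and 8.57 on irradiated arrays and by 9.73, 8.99 and 9.76 on control arrays. These did not overlap, and the means differed by -1.27 (interval -2 to -0.55; limma, unadjusted p 0.00455 and adjusted p = 0.443). Without control 1 the value was -1.15, and with quantile normalisation of all arrays it was -0.98. For Map1b against A_55_P2738372 the pair differences were 3.53, 3.80 and 3.76 on irradiated arrays and 5.73, 4.29 and 4.54 on control arrays, a shift of -1.15 (limma adjusted p = 0.443) that was -0.72 without control 1. For Map2 against A_65_P07100 they were 5.60, 5.70 and 5.67 against 6.79, 5.91 and 6.51, a shift of -0.75 that was -0.55 without control 1 and -0.41 with quantile normalisation. The remaining pair under an unadjusted 0.05 was Mapt against A_55_P2627050, with a shift of -0.85, overlapping groups, and -0.54 with quantile normalisation. In 5 of the 25 pairs all irradiated arrays lay below all controls, where 13.5% of all pairs did. Counting either direction made it 6, against 16.3%.

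The pairs with the larger shifts shared features that were looked at after their values were seen and were not tested. In 15 of the 25 pairs the other probe lay over 2000 bases upstream of the reference probe, and these had a median shift of -0.61, from -1.27 to 0.43. The 7 pairs within 2000 bases had a median of -0.19. Over the whole array the medians were -0.26 for 8656 upstream pairs and -0.15 for 3904 near pairs. In 9 pairs the other probe listed no RefSeq transcript, and 8 of these were below 0, with a median of -0.77, where 4141 such pairs over the array had -0.37. The 16 pairs with RefSeq transcripts on both sides had a median of -0.16, beside -0.17 for 8976 pairs over the array. These features overlapped, since all the pairs without a RefSeq transcript except that of Nefl were also upstream pairs. Upstream pairs with RefSeq transcripts on both sides ranged from -0.77 (Mapt A_66_P115262) to 0.17 (Sptbn4 A_66_P128460).

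Control 1 moved with these values. It was the lowest of the 6 arrays at 19 of the 34 member probes (55.9%), where it was lowest at 33.4% of all probes. Control 1 was also the highest array at 5 of the 34 member probes and at 31.6% of all probes. It was the lowest at 8 of the 9 member probes without a RefSeq transcript and at 11 of the other 25. No member probe was lowest on irradiated 3, control 2 or control 3. At the reference probes the order was another one: irradiated 1 was lowest for 5 genes, irradiated 2 for Nefm, Nefh and Sptbn4, and control 1 for Map2 only. The multiplicative trend correction of the scanner software had a fit value of 0 on control 1 and above 0 on the other arrays, and its part in these values was not tested.

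The labels give the cultures of both groups the numbers 1 to 3, and arrays of the same number deviated together from their group means. With the number in the fit as a block, 4 of the 34 member probes had an unadjusted p under 0.05 (8.58% of all probes), with Map2 A_65_P07100 and Map1b A_55_P2738372 added, and the smallest adjusted p was 0.495 (limma). The number itself was tested as a factor with 3 levels. It passed an adjusted p of 0.05 at 1 of 40552 probes (0.00247%), a probe of Mobp, and at none of the member probes. At an unadjusted 0.05 it passed at 1 of 34 member probes, Mapt A_66_P115262, where 12.7% of all probes did. That member count was 3 with normexp, where 3563 of all 40552 probes passed. With an intensity trend in the variance model it was 8, where 5825 of all 40552 probes passed. With the settings as reported, none of the 9 reference probes passed an unadjusted 0.05 for the number.

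The order over the numbers differed between members. Mapt averaged 5.27, 5.79 and 5.99 over the arrays numbered 1, 2 and 3, and Map2 averaged 5.23, 5.60 and 5.82. Ank3 gave 4.88, 5.10 and 5.32, again lowest on number 1, whereas Nefh gave 5.00, 4.31 and 4.65 and Sptbn4 4.07, 3.92 and 3.94. On single arrays the Nefl signal exceeded that of Nefh by 1.04, 2.25 and 1.97 on irradiated arrays 1 to 3 and by 1.24, 2.54 and 1.93 on control arrays 1 to 3. Arrays with a shared number agreed to within 0.29, while the means of the numbers covered 1.25. For Mapt against Nefh the same excess was 0.18, 1.36 and 1.4 on irradiated arrays and 0.36, 1.6 and 1.28 on control arrays. For Ank3 against Sptbn4 it was 0.86, 1.1 and 1.29 against 0.77, 1.26 and 1.48. These pairs of genes were chosen after their values were seen and were not tested. A difference between probes of separate genes says how unequally they changed across arrays, not which transcript is more abundant.

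**Figure D4:**
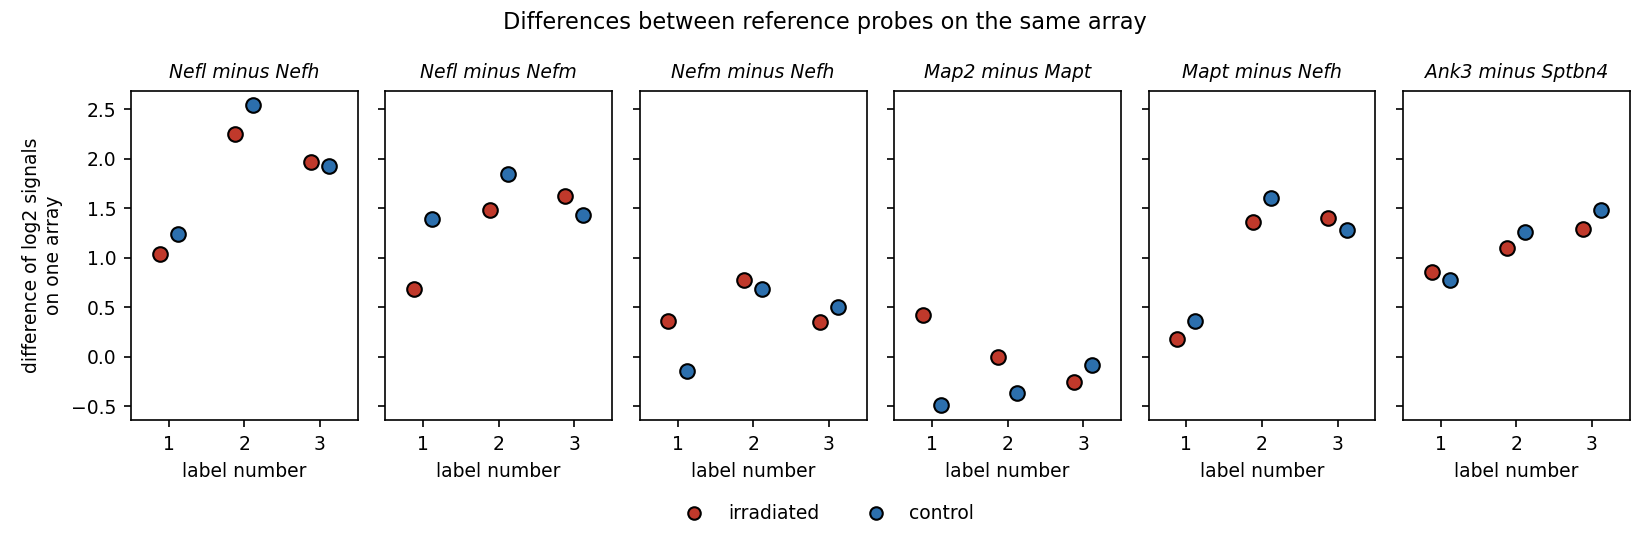
Difference of log2 signals between the reference probes of a pair of genes on the same array (vertical axis), by label number (horizontal axis), for irradiated (red, left of each pair) and control (blue, right) cultures. For Nefl minus Nefh the points of number 1 lie at 1.04 and 1.24, below the other 4 arrays, whereas for Map2 minus Mapt the points of number 1 are 0.92 apart.

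None of the measured genes of 7 related lists passed an adjusted p of 0.05 in either direction. Of 5 other intermediate filament genes 3 were below 0, with a median of -0.26. Among them Ina, the alpha-internexin that assembles with the neurofilament chains, averaged 4.32 ± 0.47 in irradiated cultures and 4.96 ± 0.29 in control cultures (SD, n = 3 each), a difference of -0.64. Prph, the peripherin filament gene, and Nes, the nestin of progenitors, differed by -0.26 and -0.33.

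Tubulins, the subunits of the microtubule itself, were below 0 in 10 of 11 cases, with a median of -0.45, and 1 of 11 had an unadjusted p under 0.05, a share like the 9.02% of all tested probes. Tubb3, the neuronal beta-tubulin, averaged 4.94 ± 0.46 in irradiated and 5.62 ± 0.49 in control cultures (SD, n = 3 each), a difference of -0.67. Tuba1a and Tubb2a, main tubulins of developing neurons, differed by -0.49 and -0.44. After quantile normalisation the tubulin median was -0.04. The median of 20 other microtubule-associated proteins was -0.09, with 12 below 0, and Map1a, Map4 and Map6 differed by 0.13, -0.19 and -0.09.

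Of 14 other genes of the initial segment and the spectrin skeleton, 10 were below 0, with a median of -0.09. Nrcam and L1cam, adhesion molecules that bind ankyrins, differed by -0.03 and 0.02. Nfasc encodes neurofascin, whose forms occur both at the initial segment and in oligodendrocytes, and it averaged 4.51 ± 0.52 in irradiated and 4.89 ± 1.08 in control cultures (SD, n = 3 each). Its highest signals were on the arrays numbered 1, at 4.97 in irradiated 1 and 6.09 in control 1. The transport genes, 12 of 15 below 0, had a median of -0.24, and the kinesin heavy chains Kif5a, Kif5b and Kif5c, which carry axonal cargo along microtubules, differed by -0.31, -0.10 and -0.25. The kinases and phosphatases of tau and neurofilaments, 11 of 13 below 0, had a median of -0.20. There Cdk5, a kinase of neurofilament tails and tau, differed by 0.04, and its activators Cdk5r1 and Cdk5r2 by -0.32 and -0.91. Cdk5r2 had signals of 2.84, 3.15 and 3.54 in irradiated cultures and 5.02, 3.55 and 3.68 in controls, so control 1 stood well above the rest. The interval of its difference was -1.89 to 0.08 (limma, adjusted p = 0.52). The RNA-binding proteins related to Rbfox3, 8 of 10 below 0, had a median of -0.12, with Rbfox1 at -0.19, Rbfox2 at -0.14 and Nova1 at -0.08. Beside all of these stood the median of -0.13 over all genes. Many genes of the lists were bright, and all probes with a signal over 4 had a median of -0.28. After quantile normalisation the medians were -0.18 for other intermediate filaments and 0.15 for other microtubule-associated proteins. They were then 0.11 for the initial segment list, 0.12 for transport, -0.01 for the kinases and phosphatases and 0.06 for the RNA-binding proteins. The neuron markers outside the 9 genes, 7 of 9 below 0, had a median of -0.27, equal to that of the 9 genes, and 0.05 after quantile normalisation.

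The mean pattern of the 3 neurofilament reference probes, each centred on its own mean, was -0.22, -0.19 and 0.01 on irradiated arrays and 0.24, 0.09 and 0.07 on control arrays. Among 15339 candidate genes over the 6 arrays, those with the smallest root mean square distance from it were Uqcc1, Cluap1, Tdp1, Nutf2 and Coa3, at distances of 0.0202 to 0.0297 on the log2 scale. Uqcc1 and Coa3 encode assembly factors of the mitochondrial respiratory chain. No neuronal intermediate filament gene was among these 5. The averaged pattern hides the spread between the chains, since Nefl was lowest on irradiated 1 and Nefh on irradiated 2.

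**Figure D5:**
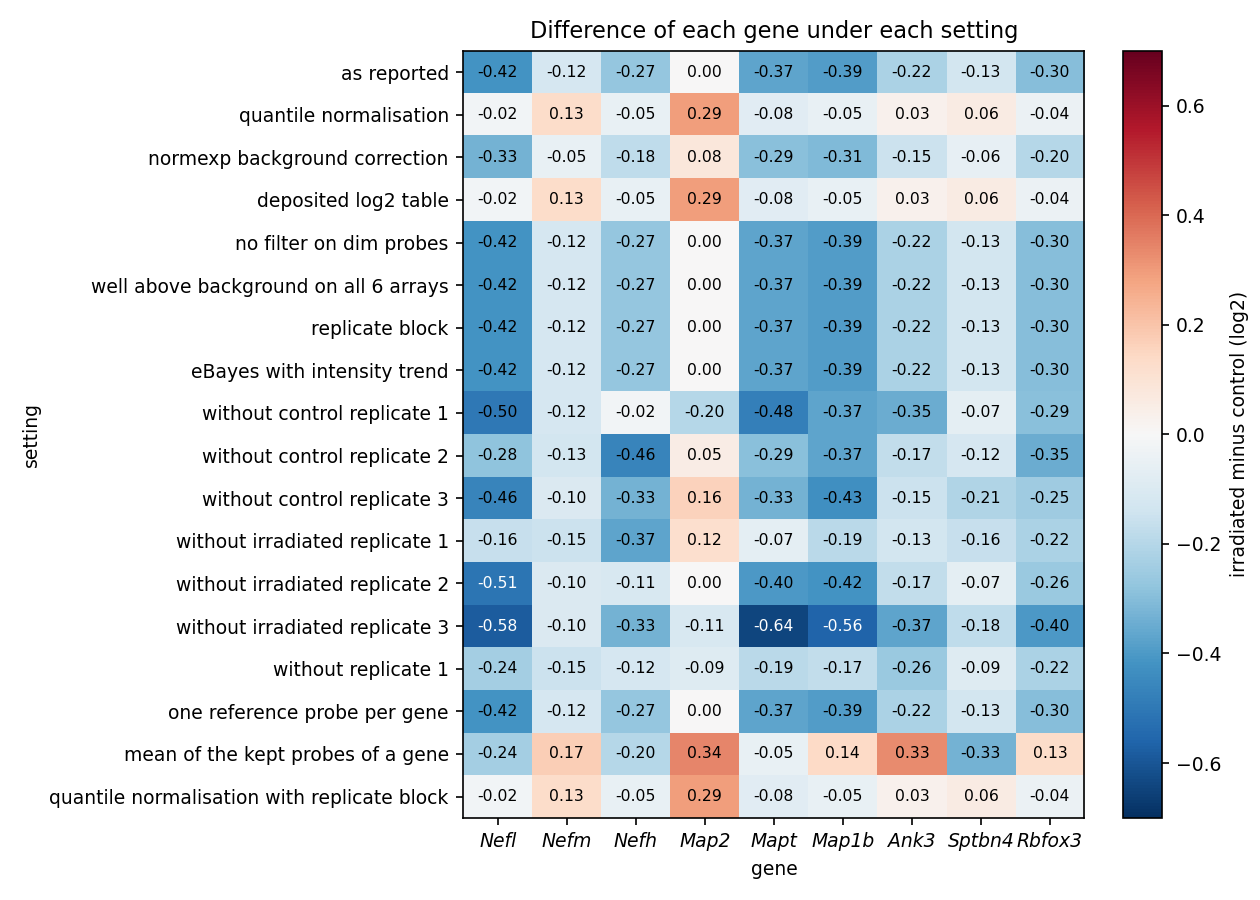
Difference of each of the 9 genes (irradiated minus control, log2, colour and number) under each processing setting (rows). Nefl, Nefh and Mapt are below 0 in every row, but come near it in some. With quantile normalisation they are at -0.02, -0.05 and -0.08. With 1 array left out, Nefl and Mapt are at -0.16 and -0.07 without irradiated 1, and Nefh is at -0.02 without control 1. Each of the other 6 genes changes sign in at least 1 row. The smallest adjusted p of any cell is 0.464, for Map1b.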

How the data were processed

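Each of 6 samples was read on 1 array. The authors deposited spot intensity values, background-subtracted and detrended within arrays per the file headers; the submitters' processing notes name Agilent Feature Extraction, version 10.7.1.1. They also deposited a log2 table, which its values show to be quantile normalised; it served as an alternative. All arrays shared 1 slide and 1 scan, but the groups were not balanced over the slide. Controls 1 to 3 lay in row 1, columns 1 to 3, and irradiated 1 in row 1, column 4. Irradiated 2 and 3 lay in row 2, columns 1 and 2. The part of slide position in the differences was not tested. From the processed signal, outlier spots were dropped, spots averaged per probe, and log2 taken relative to the array's 75th percentile. The 40552 probes well above background on at least 3 of 6 arrays were compared with limma 3.58.1 (R 4.3.3), with Benjamini-Hochberg adjustment over all of them. The number of arrays and their spread limit the precision: on simulated data with the arrays' own spread, 0 of 200 probes changed 2-fold and 49.5% of those changed 4-fold were recovered, against 90.5% and 98.5% with the spread scaled by 0.25 (irradiated against control, 40552 probes). Same-numbered arrays deviated together (correlations across genes of 0.53, 0.42 and 0.22). Irradiated 2 and control 3 also correlated, at 0.33, and irradiated 3 and control 2 at 0.17. The reported fit left the label numbers out and was not paired. A block for the number was an alternative setting. The members, gene lists and tests were chosen with earlier results of these data known. All 9 members, the first 3 genes of each list and the 5 genes nearest the neurofilament pattern are named; other genes and probes were picked after their values were seen. Probe names came from a RefSeq gene table. The scaling, background correction, filter, variance model, left-out arrays and probe summary were varied.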

Additional observations from a re-analysis of the deposited data

How the results depend on the processing

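No member probe passed an adjusted p of 0.05 under any of the 17 settings tried, nor did any member pair of probes under the 15 of these that keep separate probes. Over all probes, 4 passed between irradiated and control cultures with quantile normalisation and 4 with the deposited log2 table, none of them a member, and 0 with quantile normalisation and a replicate block, a setting added after the data were seen. The replicate block changed no other call. The median difference of the 9 reference probes, -0.27, was -0.02 with quantile normalisation, -0.02 with the deposited table and -0.02 with quantile normalisation and a replicate block, and 0.13 when the kept probes of a gene were averaged. Leaving out 1 array gave -0.37 to -0.16, the latter without irradiated 1. The sign turned for Ank3 (0.03), Sptbn4 (0.06) and Nefm (0.13) under those same 3 scalings. With averaged probes it turned for Ank3 (0.33), Map1b (0.14), Nefm (0.17) and Rbfox3 (0.13). Map2, at 0.00 as reported, was -0.20 without control 1, -0.11 without irradiated 3, -0.09 without both arrays of number 1, and just under 0 (0.00) without irradiated 2, a range of -0.20 to 0.16 over single arrays left out. The cause of these turns was not tested. The label number passed at 1 probe as reported, and at 0 with quantile normalisation, 0 with the deposited table, 0 with no filter on dim probes, 16 without control 1, 223 with probes well above background on all 6 arrays, 236 with normexp background correction and 747 with an intensity trend in the variance model. At an unadjusted p under 0.05 the share of all probes ran from 3.05% without irradiated 1 to 16.9% with normexp, and the number of member probes from 0 without both arrays of number 1 to 5 without control 2. Signal over background limits the dimmest probes most: Ank3 A_55_P2868609 was well above background on 3 of 6 arrays.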
